A study of Mus musculus with 6 samples.

Results

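Guanylate-binding proteins are large GTPases that cells make when interferons, above all interferon gamma, reach their receptors. The signal runs from the receptor through JAK kinases to transcription factors, among them IRF1, that turn on the Gbp genes. The proteins gather on vacuoles and membranes that hold microbes, help to break them open, and help inflammasomes (complexes that activate inflammatory caspases) to form. The 8 genes described here are Gbp2, Gbp3, Gbp4, Gbp5, Gbp6, Gbp7, Gbp8 and Gbp9 and they are 8 of 13599 genes with a unique molecular identifier (UMI, 1 counted RNA molecule) in at least 15 kept cells. No member fell under that minimum. They were chosen on measured values of these data, namely their summed UMIs in each library, in each well and in cells with or without Cd3, so all levels and ratios below are a description with no test.

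The study asked what cells with a delayed Bcl11b, the transcription factor that commits progenitors to the T lineage, become. CD117-enriched bone marrow of C57BL/6 mice was grown on OP9-DL1 stroma, a mouse feeder line that displays the Notch ligand DLL1, and progenitors were sorted and put back on fresh feeders for 4 days with IL-7, Flt3-L, IL-2, SCF and IL-15. Cultures were then scraped off, passed through a mesh that keeps back part of the stroma, fixed and profiled by sci-RNA-seq3, a method that labels the 3′ ends of RNA in fixed cells or nuclei by rounds of barcodes. The labels name nuclear RNA, but the protocol fixes cells and later speaks of nuclei, and many UMIs were mitochondrial, so it is unclear which of them were measured. The starts were DN1 (CD44+CD25−), DN2a (CD44+CD25+ without the Bcl11b reporter) and DN2b (CD44+CD25+ with it). WT mice carried a YFP reporter at both copies of Bcl11b. ΔTE mice carried the same reporter and lacked the timing enhancer of Bcl11b on both copies. Mice aged 2 to 4 months of both sexes were pooled, 6 to 8 at a time, and each of the 6 libraries is 1 genotype and 1 start, so no condition has a replicate. The 3 starts of a genotype may come from the same pool of mice. The 3 reverse-transcription wells of a library are technical parts of 1 culture.

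After filtering, 60671 cells remained, and 0 cell barcodes were shared between libraries. The WT libraries held 10925 cells (DN1 start), 19489 (DN2a) and 4968 (DN2b), with 5990134, 9041255 and 2730359 UMIs. The ΔTE libraries held 10294, 11594 and 3401 cells, with 5894373, 6315835 and 1715982 UMIs. The WT DN2a library stands apart in depth and composition. Its median was 386 UMIs per cell and 14.1% of its UMIs were mitochondrial, against medians of 426 to 485 UMIs and 21.3 to 23.5% in the others. Levels are given as counts-per-million values (CPM, from UMIs) with exact 95% Poisson intervals, and shares with exact Clopper-Pearson intervals. Both cover counting error only.

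The family was rare. Its 8 genes gave 4888 UMIs, 0.0154% of all UMIs kept. Gbp7, a member known from macrophage defence against bacteria, gave 2699 of them (55.2%) in 2552 cells and ranked 2653 of all genes by UMIs. Gbp8 gave 746 UMIs, and Gbp4, described as a brake on the factor IRF7, gave 525. The other 5 genes gave between 110 (Gbp9) and 238 (Gbp3) each. UMIs of 3′ ends count molecules, and capture can differ between genes, so the order of genes is rough. Divided by kb of exon, Gbp7 was highest too (15.2 CPM per kb over all libraries) and Gbp8 next (6.84), but the order below them differs. Gbp3, Gbp4 and Gbp2 followed at 2.30, 2.21 and 2.18 CPM per kb, then Gbp6 at 1.25, Gbp5 at 0.761 and Gbp9 at 0.671. The genes outside the 8 were close to absent, with 6 UMIs of Gbp2b and 2 of Gbp10 in all libraries, and Gbp11 is not in the files by that symbol.

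The summed level of the 8 genes was lowest in both cultures started from DN1 and highest in both started from DN2b. With no mitochondrial limit on cells, WT DN2b was not above WT DN2a (log2 ratio −0.02, −0.13 to 0.09). In WT libraries the sum stood at 83.3 CPM (76.2 to 90.9) for the DN1 start, 195.5 CPM (187 to 205) for DN2a and 218.7 CPM (201 to 237) for DN2b. In ΔTE libraries it stood at 102.3 CPM (94.3 to 111) for DN1, 159.9 CPM (150 to 170) for DN2a and 239.5 CPM (217 to 264) for DN2b. The order from low to high was therefore WT DN1, ΔTE DN1, ΔTE DN2a, WT DN2a, WT DN2b, ΔTE DN2b. Neighbouring intervals overlap between WT DN2a and WT DN2b and between WT DN2b and ΔTE DN2b, and not between the others. The wells of a library were close. They ran from 76.6 to 86.8 CPM in WT DN1, 188.6 to 200.9 in WT DN2a and 208 to 228 in WT DN2b. In ΔTE they ran from 98.5 to 110 CPM for DN1, 146 to 168 for DN2a and 214 to 276 for DN2b, and the wells overlap only between the DN2b libraries of the 2 genotypes.

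**Figure D1:**
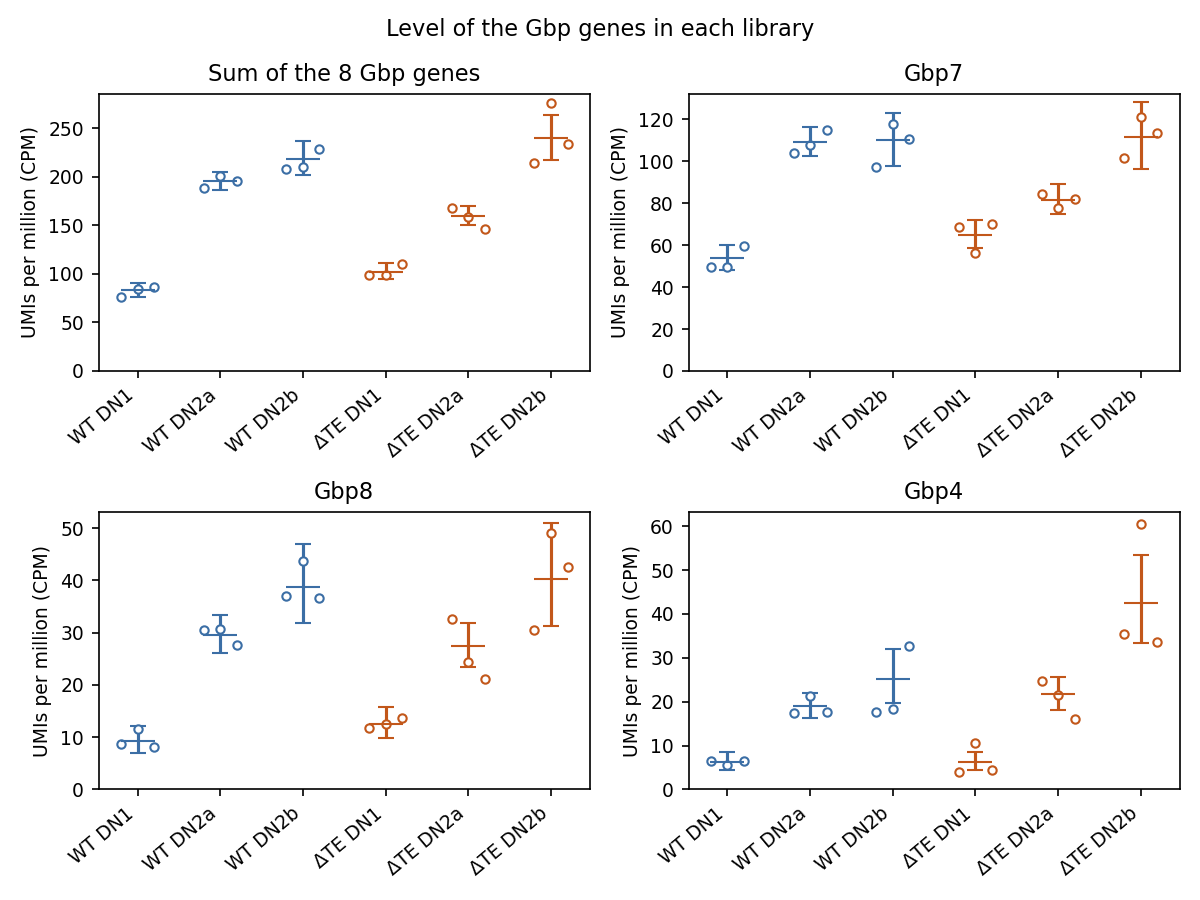
Level of the sum of the 8 Gbp genes, and of Gbp7, Gbp8 and Gbp4, in CPM for each library. The line and bar give the library value with its 95% interval and open circles give the 3 wells. The sum is lowest in the DN1 libraries (83.3 and 102.3) and highest in the DN2b libraries (218.7 and 239.5).

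Gbp7 had 53.8 CPM in WT DN1, 109.2 in WT DN2a and 109.9 in WT DN2b. In ΔTE it was 65.0, 81.7 and 111.3 CPM. WT DN2a, WT DN2b and ΔTE DN2b were thus alike within their intervals, and ΔTE DN2a lay between them and the DN1 libraries. Gbp2 (7.85 and 8.06 CPM) and Gbp3 (8.74 and 8.79) were also close in WT DN2a and WT DN2b. The share of the family's UMIs that came from Gbp7 was 64.5%, 55.8% and 50.3% from WT DN1 to WT DN2b and 63.5%, 51.1% and 46.5% in the same ΔTE starts.

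Gbp8 had 9.35, 29.6 and 38.8 CPM in WT DN1, DN2a and DN2b and 12.6, 27.4 and 40.2 CPM in ΔTE. Gbp4 had 6.18, 19.0 and 25.3 CPM in WT and 6.28, 21.7 and 42.5 CPM in ΔTE. Both were lowest from DN1 in each genotype, and for Gbp8 the levels of the 2 genotypes overlapped within their intervals at every start. Gbp4 reached its highest level in ΔTE DN2b, where 1 well (60.4 CPM) was far above the other 2 (33.6 and 35.4). In WT DN2b 1 well (32.8 CPM) was also above the other 2 (17.6 and 18.2), and without it the log2 ratio of Gbp4 from WT DN2a to DN2b turned from 0.41 to −0.08. Gbp4 made up 7.41%, 9.73% and 11.6% of the family's UMIs in WT and 6.14%, 13.6% and 17.8% in ΔTE.

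The remaining members were sparse. Gbp6 and Gbp9, both found on the vacuole of Toxoplasma gondii, were lowest from DN1, at 2.0 and 3.39 CPM (WT and ΔTE) for Gbp6 and 1.00 and 1.53 for Gbp9. They were highest in WT DN2b, at 15.7 and 7.33 CPM. Gbp5, which promotes assembly of the NLRP3 inflammasome, ranged from 2.50 CPM (WT DN1) to 9.91 (ΔTE DN2b). Gbp2, a lipid-anchored member of the vacuole coat, ranged from 3.00 CPM (WT DN1) to 8.06 (WT DN2b). Gbp3 varied least, from 5.51 (WT DN1) to 9.32 CPM (ΔTE DN2b), with overlapping intervals for those 2 libraries.

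Comparing starts asks how far the stage at sorting carries into the culture. The comparisons within a genotype share libraries, so they are not independent. In WT the sum was 2.35-fold higher from DN2a than from DN1 (log2 1.23, 1.09 to 1.38), and all 8 members were past 1.5-fold higher. Of all 12164 genes with at least 20 UMIs in the pair, 18.8% were, and the median log2 ratio was 1.53 over the members and 0.16 over all genes. The largest ratios were those of Gbp9 (log2 2.31, 1.08 to 3.83, from 45 and 6 UMIs) and Gbp6 (2.23, 1.35 to 3.24, from 85 and 12 UMIs). Over 15 alternative settings the values nearest 0 were 1.60 for Gbp9 and 2.01 for Gbp6, so the place of Gbp9 as largest depends on the setting. Gbp7 was at 1.02 and Gbp3 lowest at 0.67. Gbp3 drops below 1.5-fold with other scalings and in 5 of 15 alternative settings in all, among them without WT DN1 well 1 (0.47) or WT DN2a well 3 (0.50).

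Scaling matters for ratios that hold WT DN2a, the library with few mitochondrial UMIs. Scaled without mitochondrial genes, the median of all genes moved from 0.16 to 0.01 for WT DN2a to DN1, from −0.20 to −0.05 for WT DN2b to DN2a and from −0.15 to −0.02 for ΔTE to WT at the DN2a start. TMM, the trimmed-mean scaling of edgeR, gave 0.01, −0.03 and −0.02. Relative to the median gene, a difference that no scaling changes, the Gbp sum was 1.07 higher on the log2 scale in WT DN2a than in WT DN1 and 0.36 higher in WT DN2b than in WT DN2a. In ΔTE the same steps were 0.63 and 0.66.

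From DN2a to DN2b in WT, the sum differed little (log2 0.16, 0.02 to 0.30). It was 0.31 without mitochondrial genes in the scaling and 0.33 with TMM, and it turned to −0.02 with no mitochondrial limit on cells. Gbp6 alone of 8 members was past 1.5-fold higher (log2 0.74, 0.18 to 1.29), against 2.26% of all genes. The Gbp6 call was lost with no mitochondrial limit (0.19) and with a tighter cap on UMIs per cell (0.50), and with either other scaling Gbp9 was past 1.5-fold as well. Among all genes past 1.5-fold here, 11.1% were higher, 19.9% without mitochondrial genes and 21.4% with TMM.

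In ΔTE, the sum was 1.56-fold higher from DN2a than from DN1 (log2 0.64, 0.50 to 0.79) and 1.5-fold higher from DN2b than from DN2a (log2 0.58, 0.41 to 0.75). At the first step 5 of 8 members were past 1.5-fold higher (Gbp2, Gbp4, Gbp6, Gbp8 and Gbp9), against 12.5% of all genes, and Gbp4 was furthest at log2 1.79 (1.26 to 2.35). Gbp7 was at only 0.33 (0.14 to 0.52). Gbp2 lost the call in 4 of 15 alternative settings. It turned to −0.16 without ΔTE DN2a well 2 and fell to 0.41 without ΔTE DN1 well 1, to 0.21 in cells with at least 300 genes and to 0.56 with no mitochondrial limit. Gbp9 turned to −0.24 in cells with at most 20% mitochondrial UMIs and fell to 0.22 without ΔTE DN2a well 1. At the second step 3 of 8 were past it (Gbp4, Gbp5 and Gbp9), against 4.51% of all genes, with Gbp4 at 0.97 (0.54 to 1.39). Gbp9 was furthest at 1.09 (−0.13 to 2.24, from 11 and 19 UMIs), and Gbp5 was at 0.97 (0.03 to 1.86, from 17 and 32 UMIs). With either other scaling Gbp6 and Gbp8 passed too. The median over the members was 0.82 and 0.57 at the 2 steps, and over all genes 0.01 and −0.08.

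Comparing genotypes at 1 start asks how the enhancer deletion bears on the genes. Bcl11b itself, the target of the deleted enhancer, had 234.9, 534.7 and 856.3 CPM in WT from DN1 to DN2b and 89.4, 256.5 and 539.6 CPM in ΔTE. As log2 ratios of ΔTE over WT these gave −1.39 for DN1, −1.06 for DN2a and −0.67 for DN2b, lower in ΔTE at every start. The Gbp sum was not lower at every start. Its log2 ratio was 0.30 (0.12 to 0.47) for DN1, −0.29 (−0.40 to −0.18) for DN2a and 0.13 (−0.05 to 0.32) for DN2b. Relative to the median gene these were 0.30, −0.14 and 0.15. The ratio for DN2b was within counting error of 0, and the ratio for DN2a moved to −0.16 with each other scaling.

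Gbp7 carried much of the difference at the DN2a start. Its log2 ratio was 0.27 (0.06 to 0.49) for DN1, −0.42 (−0.57 to −0.26) for DN2a and 0.02 (−0.25 to 0.29) for DN2b. The sum of the other 7 genes had ratios of 0.34 (0.04 to 0.63), −0.14 (−0.31 to 0.02) and 0.24 (−0.02 to 0.49). Without Gbp7 the sum at the DN2a start thus did not differ beyond counting error. A lower ratio was not particular to Gbp7 at this start, as Gbp2 was at −0.63, Gbp9 at −0.73 and Gbp5 at −0.41. Gbp8 (−0.11) and Gbp4 (0.19), with more UMIs, were nearer 0 or above it.

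At the DN1 start 7 members were measured with at least 20 UMIs (Gbp9 had 15), and all 7 ratios were above 0 under each scaling. Of all genes 49.2% were above 0 in the main scaling. One of 7, Gbp6, was past 1.5-fold higher (log2 0.76, −0.34 to 1.93), against 3.16% of all genes, and 0 were lower, against 5.04%. The Gbp6 call was lost without WT DN1 well 1 (0.54) and without cells that hold a stroma-marker UMI (0.50). The median was 0.27 over the members and −0.00 over all genes.

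At the DN2a start 0 of 8 members were past 1.5-fold higher, against 2.62% of all genes, and 2 of 8 lower (Gbp2 and Gbp9), against 11.5%. Gbp2 was at log2 −0.63 (−1.28 to −0.01) and lost the call in 10 of 15 alternative settings, both other scalings among them and the removal of ΔTE DN2a well 1 (−0.27), well 3 (−0.36) or WT DN2a well 1 (−0.53). Gbp9 was at −0.73 (−1.58 to 0.08) and lost it in 4 of 15, among them without ΔTE DN2a well 2 (−0.58), well 3 (−0.48) or WT DN2a well 2 (−0.50). Gbp4 was the 1 member above 0 (0.19, −0.15 to 0.52), against 24.4% of all genes, and with the other scalings Gbp8 was above 0 too. Of all genes past 1.5-fold at this start, 18.5% were higher, 31.0% without mitochondrial genes and 31.9% with TMM. The median was −0.32 over the members and −0.15 over all genes.

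At the DN2b start 2 of 8 members were past 1.5-fold higher, against 5.57% of all genes, and 0 lower, against 8.83%. They were Gbp4 (log2 0.75, 0.26 to 1.25) and Gbp5 (1.06, −0.07 to 2.22, from 17 and 13 UMIs). The Gbp4 call was lost without ΔTE DN2b well 2 (0.45), in cells with at most 20% mitochondrial UMIs (0.55) and with no mitochondrial limit (0.39), and with no limit Gbp5 lost it too (0.45). Of 8 ratios 5 were above 0 under each scaling, against 46.8% of all genes in the main one. The median was 0.03 over the members and −0.02 over all genes.

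Members near the limit also passed 1.5-fold when 1 well was left out. Between genotypes these were Gbp5 (main 0.58, up to 0.80) and Gbp8 (0.43, up to 0.59) at DN1 and Gbp5 at DN2a (−0.41, to −0.68). From WT DN2a to DN2b they were Gbp9 (0.56, up to 0.78) and Gbp5 (−0.50, to −0.91). In ΔTE they were Gbp5 from DN1 to DN2a (0.44, 0.81), and from DN2a to DN2b Gbp2 (0.46, 1.28), Gbp6 (0.58, up to 0.79) and Gbp8 (0.55, up to 0.81).

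**Figure D2:**
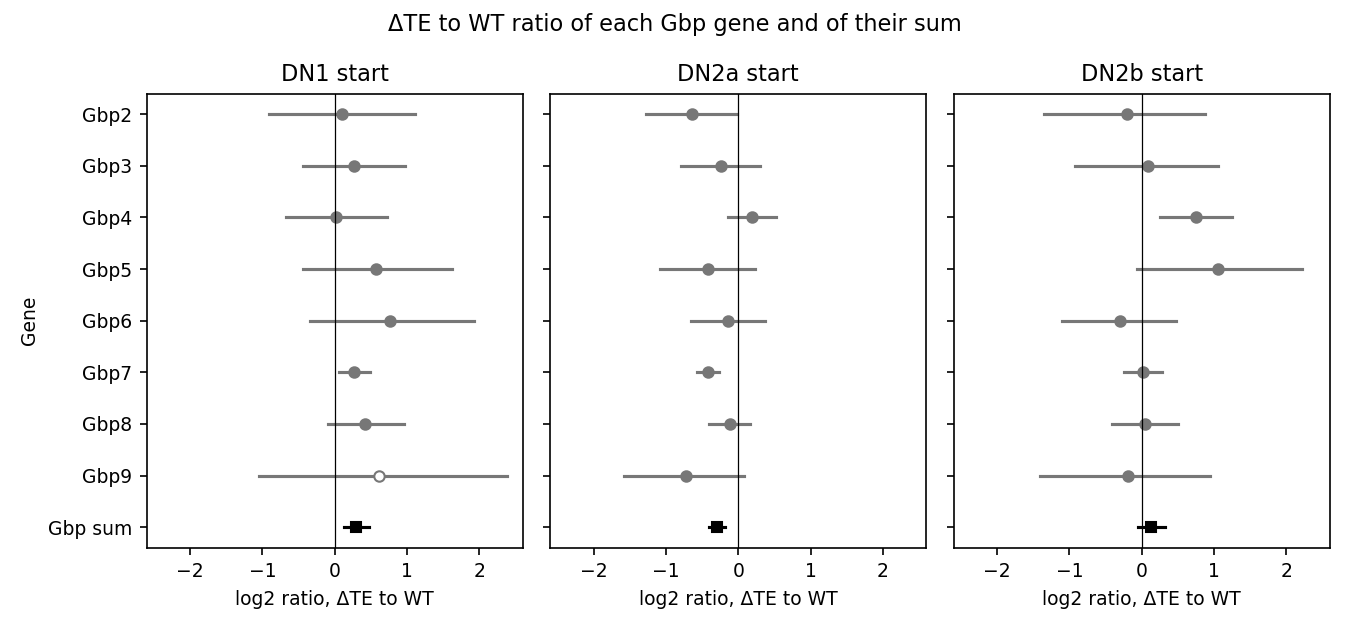
Log2 ratio of ΔTE to WT for each Gbp gene (grey circles) and for their sum (black squares), with 95% intervals, at each start. The open circle marks Gbp9 at the DN1 start, with 15 UMIs in the pair. The sum is above 0 for DN1 (0.30), below 0 for DN2a (−0.29) and its interval holds 0 for DN2b (0.13).

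Cd3d, Cd3e and Cd3g encode the CD3 chains of the T-cell receptor complex and pre-receptor complex, and a UMI of any of them was found in 3.17%, 11.1% and 21.9% of WT cells (DN1, DN2a, DN2b) and 1.31%, 5.74% and 18.2% of ΔTE cells. The Gbp sum was higher in cells with a Cd3 UMI in 6 of 6 libraries. In WT it was 149.9 CPM with Cd3 and 80.9 without for DN1, 305.9 and 179.7 for DN2a, and 335.6 and 182.1 for DN2b. In ΔTE it was 240.5 CPM with Cd3 and 100 without for DN1, 214.7 and 156.1 for DN2a, and 329.9 and 218.1 for DN2b. The intervals of these levels in the 2 groups of cells did not overlap in any library. With cells thinned to equal depth, the share of cells with a Gbp UMI was also higher with Cd3 in each library. Its intervals overlapped in WT DN1, at 4.09% (1.89 to 7.62) with Cd3 and 2.31% (2.02 to 2.63) without. They also overlapped in ΔTE DN2b, at 9.97% (7.16 to 13.4) and 6.57% (5.64 to 7.60), and not in the others. Cells with a Cd3 UMI were few in the DN1 libraries, 346 in WT and 135 in ΔTE, with 32 and 23 Gbp UMIs.

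The log2 ratio of cells with to cells without a Cd3 UMI was 0.89 (0.33 to 1.41), 0.77 (0.59 to 0.94) and 0.88 (0.64 to 1.13) in WT from DN1 to DN2b. In ΔTE it was 1.27 (0.60 to 1.87), 0.46 (0.13 to 0.78) and 0.60 (0.27 to 0.92). All these intervals overlap with each other. The median over all genes lay between −0.14 and −0.05. When at least 2 Cd3 UMIs were asked for, the ratio moved to 2.04 in ΔTE DN1 and to 0.84 in ΔTE DN2a. With at most 20% mitochondrial UMIs it was 0.81 in ΔTE DN1 and 0.97 in ΔTE DN2b. With Cd3g as the sole Cd3 gene it was 0.37 in ΔTE DN2b.

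The Cd3 ratio of Gbp7 was below that of the summed other 7 genes in 6 of 6 libraries, with intervals that overlap in all but WT DN2a and WT DN2b. With at least 2 Cd3 UMIs, Gbp7 lay within the interval of the others in WT DN2a (0.68 in 0.53 to 1.33) and WT DN2b (0.84 in 0.48 to 1.47). It did so too in WT DN2a without well 2 (0.70 in 0.59 to 1.25). In WT DN2b it did so at equal depth (0.75 in 0.24 to 1.36) and with at most 20% mitochondrial UMIs (0.36 in 0.34 to 1.59). At equal depth the order turned in ΔTE DN1 (2.0 for Gbp7 and 1.28 for the others, from 5 and 2 UMIs in Cd3 cells) and ΔTE DN2b (0.86 and 0.45). For Gbp7 the log2 ratio was 0.30 (−0.59 to 1.07), 0.53 (0.28 to 0.77) and 0.52 (0.15 to 0.88) in WT and 0.54 (−0.60 to 1.49), 0.11 (−0.42 to 0.60) and 0.45 (−0.06 to 0.94) in ΔTE, none past 1.5-fold. Without 1 well it passed in WT DN2a (0.70, well 2), WT DN2b (0.60, well 2), ΔTE DN1 (0.70, well 3) and ΔTE DN2b (0.60, well 1 or 2). With at least 2 Cd3 UMIs it passed in 5 of 6 libraries (0.81, 0.68 and 0.84 in WT, 1.08 in ΔTE DN1 and 0.61 in ΔTE DN2b). At equal depth it passed in WT DN2a (0.66), WT DN2b (0.75) and these 2 ΔTE libraries, and with at most 20% mitochondrial UMIs in WT DN1 (0.65) and ΔTE DN2b (0.95). In ΔTE DN1 it also passed with a tighter cap on UMIs per cell (0.83) and with Cd3g as the sole Cd3 gene (0.71). In WT DN1 it turned to −0.06 without well 3 and −0.30 at equal depth. The sum of the other 7 genes had 1.62 (0.82 to 2.32), 1.04 (0.79 to 1.28) and 1.23 (0.89 to 1.57) in WT and 2.04 (1.15 to 2.82), 0.76 (0.32 to 1.18) and 0.72 (0.27 to 1.15) in ΔTE, all past 1.5-fold, and ΔTE DN2b fell below it at equal depth and with Cd3g as the sole Cd3 gene (0.48). Single members below 0 were Gbp3 in WT DN2b (−0.26) and ΔTE DN2b (−1.84, from 16 UMIs) and Gbp2 and Gbp5 in ΔTE DN2a (−0.06 each). Gbp8 and Gbp4 were past it in all 6 libraries, at 1.70, 0.80, 1.12, 3.07, 0.74 and 1.34 for Gbp8 and 2.08, 1.70, 0.94, 0.75, 0.93 and 0.85 for Gbp4 (WT, then ΔTE, from DN1 to DN2b). The ΔTE DN1 value of Gbp4 rests on 1 UMI in Cd3 cells (interval −4.59 to 3.32). Without 1 well, Gbp8 fell below 1.5-fold in WT DN2a (0.47 without well 2) and ΔTE DN2a (0.13 without well 1), and Gbp4 in ΔTE DN2b (0.42 without well 1). Thinned to equal depth, Gbp4 was at 0.21 in WT DN2b and 0.12 in ΔTE DN2b, and Gbp8 at 0.55 in ΔTE DN2b. In WT DN2b Gbp8 was at 0.24 with at most 20% mitochondrial UMIs and Gbp4 at 0.30 with at least 2 Cd3 UMIs, and in ΔTE DN2b Gbp4 was at 0.53 with Cd3g as the sole Cd3 gene found.

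Counted over the members with at least 20 UMIs, 3 of 4 were past 1.5-fold higher with Cd3 in WT DN1, 4 of 8 in WT DN2a and 5 of 7 in WT DN2b, against 12.0%, 3.88% and 5.1% of all genes. In ΔTE it was 4 of 6 for DN1, 3 of 7 for DN2a and 2 of 4 for DN2b, against 16.9%, 7.35% and 7.99%. The 4 in ΔTE DN1 rest on 1 UMI (Gbp4), 1 UMI (Gbp6, −3.70 to 4.33), 2 UMIs (Gbp5) and 9 UMIs (Gbp8) in Cd3 cells, and without well 1 Gbp6 had 0 there, as Gbp4 had without well 2. In ΔTE DN1 Gbp3 had 0 UMIs in Cd3 cells, against 6.73 CPM without Cd3. A count of 0 allows up to 38.6 CPM by the exact interval (31.4 by a limit of 3 UMIs), so no direction can be given. Gbp6 reached log2 1.61 (0.88 to 2.30) in WT DN2a and 2.28 (1.35 to 3.26) in WT DN2b, and 0.85 (−0.67 to 2.08) and 0.30 (−1.49 to 1.80) in the same ΔTE starts. Gbp2 was past 1.5-fold in WT DN2a (0.63, −0.36 to 1.52), and it turned to −0.57 with at least 2 Cd3 UMIs and to −0.41 at equal depth. Without 1 well it fell to 0.18 there (well 2), and Gbp3 in WT DN1 fell from 1.44 to 0.50 (well 3). With a tighter cap on UMIs per cell, Gbp3 in WT DN1 was at 0.15, Gbp6 in ΔTE DN2a at 0.16 and Gbp2 in WT DN2a at 0.38. Past 1.5-fold without 1 well came Gbp3 (main 0.58, 0.92), Gbp5 (0.44, 0.64) and Gbp9 (0.35, 0.77) in WT DN2a, Gbp3 in WT DN2b (−0.26, −0.69), and in ΔTE DN2a Gbp3 (0.42, 0.91), Gbp2 (−0.06, 0.65) and Gbp5 (−0.06, 0.65 and −0.60).

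**Figure D3:**
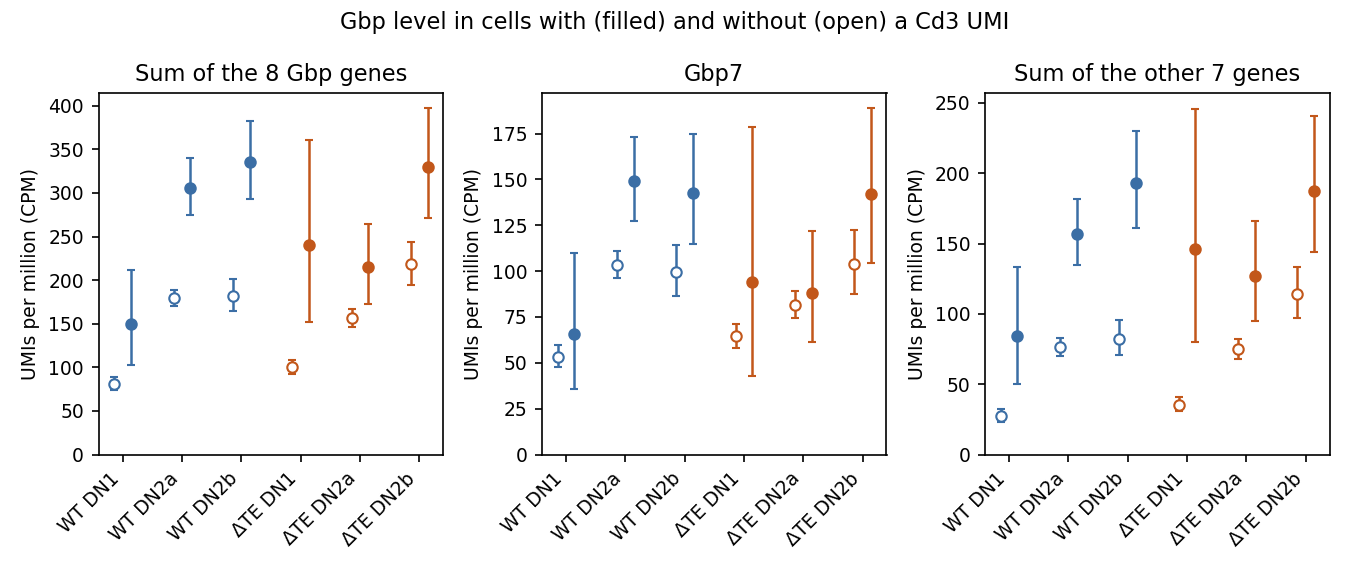
Level in CPM of the 8 Gbp genes, of Gbp7 and of the other 7 genes, in cells with (filled) and without (open) a Cd3 UMI, with 95% intervals, for WT (blue) and ΔTE (orange). The sum is higher with Cd3 in 6 of 6 libraries, and the ratio is larger for the other 7 genes than for Gbp7, with intervals that overlap in 4 of 6 libraries and an order that turns at equal depth in ΔTE DN1 and ΔTE DN2b. In WT DN2a and WT DN2b, Gbp7 lies within the interval of the others when at least 2 Cd3 UMIs are asked for.

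Within cells that lack a Cd3 UMI, the genotype differences of the sum had the same directions as over all cells. ΔTE over WT stood at log2 0.31 (0.13 to 0.49) for DN1, −0.20 (−0.32 to −0.08) for DN2a and 0.26 (0.04 to 0.48) for DN2b. Gbp4 in these cells had 0.16 (−0.56 to 0.90), 0.47 (0.09 to 0.85) and 0.83 (0.22 to 1.45). Within cells that hold one, the sum had 0.68 (−0.16 to 1.5), −0.51 (−0.86 to −0.17) and −0.02 (−0.37 to 0.31). All ratios in this paragraph are in the main scaling, and the other scalings were not applied within these groups. Over all cells they moved the DN2a ratio of the sum from −0.29 to −0.16, and the median of all genes there was −0.15. Whether the DN2a difference in cells without Cd3 stays beyond counting error under them was not tested. From DN1 to DN2a, the sum differed by 1.15 in WT and 0.64 in ΔTE in cells without Cd3, and by 1.03 (0.50 to 1.60) and −0.16 (−0.84 to 0.57) in cells with it. From DN2a to DN2b it differed by 0.02 (−0.15 to 0.18) in WT and 0.48 (0.29 to 0.67) in ΔTE without Cd3, and by 0.13 (−0.12 to 0.38) and 0.62 (0.20 to 1.04) with it.

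Per cell, a Gbp UMI was uncommon at these depths. With each cell thinned to 300 UMIs, the share of cells with a Gbp UMI was 2.35% (2.06 to 2.67), 5.63% (5.26 to 6.01) and 6.75% (6.03 to 7.53) in WT from DN1 to DN2b. In ΔTE it was 3.26% (2.91 to 3.65), 4.61% (4.21 to 5.04) and 7.01% (6.11 to 7.99). The order of libraries is that of the summed level, and the WT DN2a share is above the ΔTE DN2a share beyond their intervals. Thinning left out 4723 cells of WT DN2a and 1471 of ΔTE DN2a. These libraries also differ in mitochondrial UMIs (14.1% and 21.3%), and what that does to the shares was not tested. Cells that held at least 2 UMIs of stroma genes had a Gbp UMI in 5.91% of cases (5.12 to 6.78) and a Cd3 UMI in 4.28%, where a feeder cell should have no Cd3, and their median was 548 UMIs. The other cells had a Gbp UMI in 7.32% (7.11 to 7.53) and a Cd3 UMI in 8.50%, at a median of 430 UMIs. So part of the Cd3 and Gbp UMIs lie in barcodes that also hold stroma RNA. Among thinned cells with another Gbp gene, 3.70% (2.64 to 5.02) also had Gbp7, and among the rest 2.55% (2.41 to 2.69) did, so members were seldom caught in the same cell. The share was the higher of the 2 in 3 of 6 libraries (WT DN2b, ΔTE DN1 and ΔTE DN2a) and the lower in the others.

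Sets of cells with at least 2 UMIs of a marker list, over all libraries, differed in the Gbp sum. Cells with T markers stood at 217.7 CPM (205 to 231) and all other cells at 142.3 (138 to 147). Cells with markers of innate lymphoid (ILC) or NK cells stood at 159.5 CPM (151 to 169), with an interval that overlaps that of cells outside the set (153.0, 148 to 158). A cell with 2 UMIs of Gzma alone enters this set. The paper reports Gzma as higher in ΔTE multipotent progenitors, so the set need not be ILC or NK cells. Cells with markers of multipotent progenitors (110.3 CPM, 95.9 to 126), stroma (98.4, 85.6 to 113) and myeloid cells (85.4, 62.3 to 114) were lower than all cells outside those sets. Cells with class II antigen-presentation markers stood at 97.3 CPM (51.8 to 166). The sets can overlap, and they mix libraries in unequal parts. Within libraries, T-set cells were above the library value in 6 of 6 libraries, from 102.3 CPM in WT DN1 to 302.3 in ΔTE DN2b. The T list holds Cd3d, Cd3e and Cd3g, so this set is in part the division by Cd3 again and gives no separate support to it. ILC or NK-set cells stood at 93.9, 205.0 and 199.1 CPM in WT from DN1 to DN2b and at 115.4, 163.3 and 172.8 CPM in ΔTE, where the last (140 to 210) lies below the library value of 239.5 CPM (217 to 264) and the other 5 overlap with theirs. Gbp4 was at 29.6 CPM in T-set cells, 21.4 in ILC or NK cells, 7.84 in multipotent cells, 6.03 in stroma cells and 1.90 in myeloid cells.

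The T list had the order of starts of the Gbp sum in each genotype, and the ILC or NK list had it in ΔTE. All 8 T markers were detected in each library, with a summed level of 655, 1427 and 2120 CPM in WT from DN1 to DN2b and 491, 965 and 1709 in ΔTE, and their most abundant gene was Tcf7 or Bcl11b. The 10 ILC or NK markers summed to 1025, 1477 and 1308 CPM in WT and 1298, 1968 and 2235 in ΔTE. Gzma was most abundant in each library, and Il2rb was at 0 in WT DN1. Gzma alone gave 566, 830 and 594 CPM of these sums in WT and 877, 1345 and 1061 in ΔTE. In each genotype both lists were lowest from DN1, as the Gbp sum was.

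The myeloid, multipotent and antigen-presentation lists were highest from DN1 in each genotype. The 10 myeloid markers summed to 446, 54.2 and 27.8 CPM in WT and 320, 54.6 and 14 in ΔTE, with Mpo or Lyz2 most abundant and S100a8 and S100a9 at 0 in both DN2b libraries. The 5 multipotent markers, led by Bcl11a or Kit, summed to 752, 411 and 317 CPM in WT and 699, 352 and 272 in ΔTE. The 8 stroma markers, led by Col1a2 or Cxcl12, were lowest from DN1 and highest in the DN2a libraries, at 405, 1804 and 674 CPM in WT and 219, 1100 and 300 in ΔTE. The 4 antigen-presentation markers summed to 66.3, 12.6 and 4.76 CPM in WT and 92.3, 19.3 and 2.33 in ΔTE, with Cd74 at 0 in both DN2b libraries. The part of these cell types in the Gbp differences was not tested.

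Of the interferon genes only 2 were looked at. Ifng, the gene of interferon gamma, had 1 UMI in all libraries, in ΔTE DN2b, and Ifnb1, the gene of interferon beta, had 0. Counts of the lists below stand against the shares of all genes past 1.5-fold given above, for ΔTE to WT 3.16%, 2.62% and 5.57% higher and 5.04%, 11.5% and 8.83% lower from DN1 to DN2b, and for DN1 to DN2a 18.8% higher and 4.16% lower in WT and 12.5% and 4.97% in ΔTE. From DN2a to DN2b 2.26% were higher and 18.1% lower in WT, and 4.51% and 14.7% in ΔTE. The 7 receptor and kinase genes were all measured. Ifngr1, the ligand-binding chain of the interferon gamma receptor, was at 129, 231 and 275 CPM in WT from DN1 to DN2b and 131, 263 and 337 CPM in ΔTE, so it was lowest from DN1 as the Gbp sum was. Jak1, a kinase shared by both interferon receptor types, was at 337 to 402 CPM, and Ifnar2, a chain of the type I receptor, at 93.8 to 152 CPM and highest from DN1. Of these 7 genes, Ifngr1 was past 1.5-fold higher from DN2a than from DN1 in each genotype. From DN2a to DN2b 0 of 7 were past it in WT (1 higher with either other scaling) and 1 of 7 in ΔTE (Ifngr2, the signalling chain, higher, at 14.1 and 27.4 CPM). Between genotypes 0 of 7 were past it at DN1 and DN2b and 1 of 7 at DN2a (Ifngr2, lower in ΔTE). Ifngr2 was chosen after its values were seen.

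The list held 8 transcription factors. Irf2, a repressor of interferon-responsive genes, was at 117 to 123 CPM in all 6 libraries. Irf1, the activator of Gbp genes, was at 61.1 to 74.0 CPM, and Nlrc5, the activator of class I genes, at 59.8, 54.7 and 49.4 CPM in WT from DN1 to DN2b and 67.9, 50.8 and 45.5 CPM in ΔTE. Between genotypes, 1 of 8 factors was past 1.5-fold at DN1 (Irf8, higher), 0 of 8 at DN2a, and 1 higher (Irf8) and 1 lower (Irf9) of 7 at DN2b. Scaled without mitochondrial genes it was 0 of 8 at DN1, and with either other scaling 1 of 8 was higher at DN2a. Irf8 ran from 5.13 CPM (WT DN2b) to 26.3 (ΔTE DN1) and was past 1.5-fold lower from DN2a than from DN1 in each genotype. Irf7 was past it lower from DN2b than from DN2a in each genotype, and Irf9 in ΔTE. Irf7, Irf8 and Irf9 were chosen after their values were seen.

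Of 3 feedback inhibitors, Socs1 and Socs3 were lowest in both DN1 libraries. Socs1, which blocks JAK kinases, was at 23.0, 58.6 and 67.8 CPM in WT from DN1 to DN2b and 29.0, 67.1 and 99.1 CPM in ΔTE. Socs3, its relative in cytokine signalling, was at 3.51 to 14.1 CPM and Usp18, the inhibitor of the type I receptor, at 6.99 to 14.7 CPM. From DN1 to DN2a, 2 of 3 inhibitors (Socs1 and Socs3) were past 1.5-fold higher in each genotype. Between genotypes 0 of 3 were past it at DN1 and DN2a and 1 of 3 at DN2b (Usp18, lower in ΔTE), and Usp18 was also past it lower from ΔTE DN2a to DN2b. At that step 1 of 3 was past it higher as well with either other scaling.

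Other interferon-inducible GTPases went with the Gbp sum from WT DN1 to DN2a, and not from WT DN2a to DN2b. Of 11 on the list 8 were in the files, and Gm12250, Mx1 and Mx2 were not found by symbol. Irgm1, a regulator of the family on host membranes, was at 21.4, 37.4 and 23.4 CPM in WT and 26.0, 30.1 and 25.1 CPM in ΔTE. Igtp (Irgm3), its relative on lipid droplets and the endoplasmic reticulum, was at 21.2, 28.8 and 19.0 CPM in WT and 24.3, 36.9 and 23.9 CPM in ΔTE. Irgm2 was at 12.2 to 19.2 CPM, and all 3 genes were highest in a DN2a library. The log2 ratio of the summed list was 0.74 (0.57 to 0.91) from WT DN1 to DN2a and −0.55 (−0.78 to −0.33) from WT DN2a to DN2b, where the Gbp sum was at 0.16. With either other scaling the first was 0.59 and the second −0.40 or −0.38. At the first step 5 of 7 were past 1.5-fold higher (4 with either other scaling), and at the second 3 of 7 lower (1 with either, where 13.9% and 13.5% of all genes were lower). In ΔTE the same steps were 0.38 (0.21 to 0.56) with 1 of 6 past 1.5-fold higher, and −0.22 (−0.48 to 0.04) with 1 higher and 1 lower of 6, where the Gbp sum was at 0.58. Between genotypes the list was at 0.25 (0.06 to 0.45) for DN1, −0.10 (−0.25 to 0.04) for DN2a and 0.23 (−0.08 to 0.54) for DN2b. Past 1.5-fold were 1 higher of 6 at DN1 (Tgtp1), 3 lower of 7 at DN2a (Iigp1, Tgtp2 and Gvin1), and 1 higher (Tgtp1) and 1 lower (Gvin1) of 6 at DN2b, all named after their values were seen. With either other scaling the list was at 0.02 or 0.03 for DN2a, with 1 lower of 7. For cells with to cells without a Cd3 UMI the list was at 0.80 (0.14 to 1.40), 0.23 (−0.04 to 0.48) and 0.26 (−0.21 to 0.71) in WT from DN1 to DN2b. In ΔTE it was at 0.69 (−0.28 to 1.51), 0.58 (0.18 to 0.97) and 0.28 (−0.31 to 0.85), so above 0 in 6 of 6 libraries and beyond the interval in 2. Other lists did not all go this way. Type I interferon targets ran from −0.38 (ΔTE DN1) to 0.11 (ΔTE DN2b). Antigen processing ran from −0.16 (ΔTE DN1) to 0.09 (ΔTE DN2b), and factors from −0.08 (ΔTE DN2a) to 0.08 (WT DN2a). The intervals of these lists held 0 in every library. Receptors and kinases were above 0 in every library (0.10 to 0.27). Inhibitors (−0.31 to 0.76) and inflammasome genes (−0.10 to 1.07) lay on both sides of 0.

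Interferon targets of other kinds follow. Between genotypes, of 11 antigen-processing genes 0 were past 1.5-fold at DN1 and DN2a and 1 at DN2b (Psmb10, a proteasome subunit, higher, chosen after its values were seen). B2m, the light chain of class I molecules, was at 1115 to 1413 CPM, and the heavy chains H2-D1 and H2-K1 at 351 to 458 and 364 to 471 CPM. The summed list was at 0.09 (0.06 to 0.12), −0.00 (−0.03 to 0.02) and 0.25 (0.20 to 0.30) from DN1 to DN2b. Above 0 were 10, 7 and 11 of its 11 genes, against 49.2%, 24.4% and 46.8% of all genes. With either other scaling the list was at 0.12 or 0.13 for DN2a, with 11 of 11 above 0, where the median over all genes was −0.02. Of the type I interferon targets, 1 higher (Rsad2) and 1 lower (Ifit1) of 11 were past 1.5-fold at DN1, 2 lower of 12 at DN2a (Oas2 and Oasl2; 1 with either other scaling) and 0 of 7 at DN2b, and apart from Oasl2 these names too were chosen after their values were seen. From DN1 to DN2a, 6 higher and 3 lower of 13 were past it in WT (4 and 3 with either other scaling) and 4 higher and 1 lower of 11 in ΔTE. From DN2a to DN2b it was 1 higher and 3 lower of 12 in WT and of 10 in ΔTE. Bst2, a tether of budding viruses, was at 86.4 to 113 CPM, Rtp4, an inhibitor of RNA viruses, at 11.0 to 19.8 and Oasl2, a sensor relative, at 5.26 to 13.6. Of 5 inflammasome genes 0 were past it between genotypes at DN1 and DN2a and 1 at DN2b (Nlrp3, lower, chosen after its values were seen). From WT DN2a to DN2b 1 was higher (Nlrp3) and 1 lower (Casp1), with 0 lower under either other scaling. From DN1 to DN2a 0 were past it in WT (1 lower with either other scaling) and 1 was lower in ΔTE (Gsdmd). From ΔTE DN2a to DN2b 0 were past it. The DNA sensor Aim2 was at 51.9 to 74.8 CPM, the protease Casp1 at 6.23 to 9.73 and Gsdmd, the pore protein it cleaves, at 5.54 to 10.0.

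The genes fall in 2 clusters. In GENCODE M21 on GRCm38, Gbp5 (chr3:142493978-142522344), Gbp7 (chr3:142530342-142550149), Gbp3 (chr3:142560026-142573209) and Gbp2 (chr3:142620602-142638008) lie on the forward strand of chromosome 3. Gbp8 (chr5:105014150-105139540), Gbp9 (chr5:105077630-105139539), Gbp4 (chr5:105115767-105139586) and Gbp6 (chr5:105270702-105293698) lie on the reverse strand of chromosome 5. With the neighbours Gbp2b and the pseudogene Gbp2-ps the first cluster spans 175 kb, and with Gbp10 and Gbp11 the second spans 332 kb. Gbp4, Gbp8 and Gbp9 share 60 to 61 exon bases near their starts, so they overlap in the annotation. How reads were divided between them, or between the similar Gbp6 and Gbp10, is not given, and the levels of these 5 genes depend on it. Their Ensembl identifiers are ENSMUSG00000105504 (Gbp5), ENSMUSG00000040253 (Gbp7), ENSMUSG00000028268 (Gbp3), ENSMUSG00000028270 (Gbp2), ENSMUSG00000034438 (Gbp8), ENSMUSG00000029298 (Gbp9), ENSMUSG00000079363 (Gbp4) and ENSMUSG00000104713 (Gbp6).

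**Figure D4:**
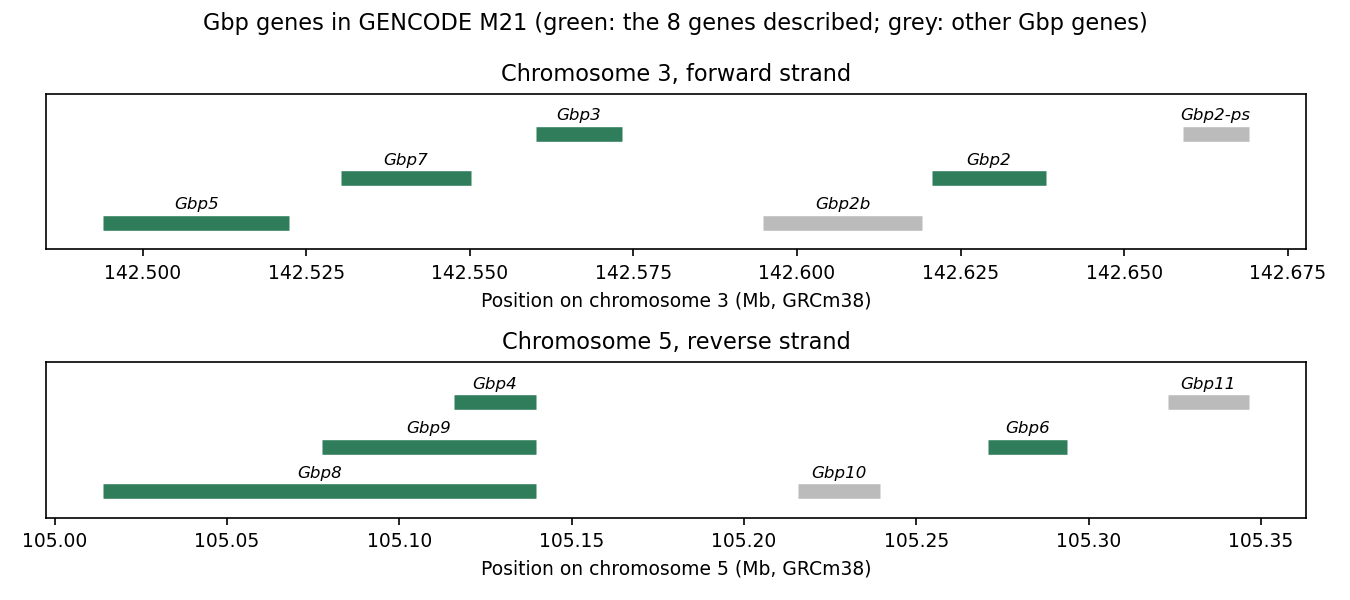
Map of the Gbp genes in GENCODE M21 along chromosomes 3 and 5, in Mb of GRCm38, with the 8 genes described in green and other Gbp genes in grey. Bars run from gene start to end, and the 4 genes of each chromosome lie on 1 strand.

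The cluster sums varied with the start, and Gbp7 gave most of the first. The chromosome 3 genes summed to 64.8, 132.5 and 131.5 CPM in WT from DN1 to DN2b and 78.5, 99.3 and 137.5 CPM in ΔTE. The chromosome 5 genes summed to 18.5, 63.0 and 87.2 CPM in WT and 23.8, 60.6 and 102.0 CPM in ΔTE. From WT DN1 to DN2a the log2 ratio was 1.03 (0.87 to 1.2) for chromosome 3 and 1.77 (1.47 to 2.07) for chromosome 5, and from WT DN2a to DN2b −0.01 (−0.19 to 0.16; 0.14 and 0.16 with the other scalings) and 0.47 (0.24 to 0.69). In both steps the intervals of the clusters did not overlap, but without Gbp7 the chromosome 3 genes had 1.08 (0.68 to 1.5) and −0.11 (−0.55 to 0.31), which overlap with those of chromosome 5. With the other scalings the latter value turned to 0.04 and 0.06. In ΔTE the first step was 0.34 (0.16 to 0.51) and 1.35 (1.07 to 1.64), with 0.37 (−0.05 to 0.81) for chromosome 3 without Gbp7, and the second 0.47 (0.25 to 0.69) and 0.75 (0.48 to 1.01), where they overlap.

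Between genotypes at the DN2a start, the chromosome 3 sum was lower in ΔTE (log2 −0.42, −0.56 to −0.28) and the chromosome 5 sum did not differ beyond counting error (−0.06, −0.25 to 0.13). Without Gbp7 the other 3 chromosome 3 genes were at −0.41 (−0.75 to −0.07). With either other scaling the chromosome 3 sum stayed below 0 (−0.29 and −0.28), the interval without Gbp7 held 0 (−0.28, −0.63 to 0.05 and −0.28, −0.62 to 0.06), and the chromosome 5 sum turned to 0.07 and 0.08. At the DN1 start the ratios were 0.28 (0.08 to 0.48) and 0.36 (−0.01 to 0.73), and at DN2b 0.06 (−0.18 to 0.31) and 0.23 (−0.06 to 0.51), alike within their intervals.

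Promoter sequences are shown because the genes share an inducer, and neighbours such as Gbp7 and Gbp3 differ in level. RefSeq promoters (GRCm38.p6) were at hand for 4 members, Gbp2, Gbp3, Gbp5 and Gbp7, and not for Gbp4, Gbp6, Gbp8 and Gbp9. The 250 bases before the start were searched on both strands for TTCNNNGAA, the gamma-activated site, and for GAAANNGAA, the core of the interferon-stimulated response element, which IRF factors bind. Of 32851 promoters, 7.02% hold the first, 7.13% the second and 0.752% both. Gbp7 holds 2 gamma-activated sites and 1 response-element core, which reads on the reverse strand. They lie at chr3:142530220-142530248, chr3:142530239-142530267 and chr3:142530274-142530302, with the match starting 106, 87 and 52 bases before the start. The capitals mark the match, on the forward strand of the chromosome.
Gbp7 site 1: tccgttttctTTCCAGGAAaagcagaagc
Gbp7 site 2: aagcagaagcTTCTCAGAAagtcagcaca
Gbp7 core: tgtgtgcagtTTCAGTTTCagttctccat

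Gbp3 holds 2 overlapping response-element cores on the reverse strand, 44 and 38 bases before its start (chr3:142559990-142560018 and chr3:142559996-142560024), and no match to the gamma-activated site in that window. Another RefSeq promoter of Gbp3 (chr3:142560106-142560405) holds 0 matches to either pattern. Gbp5 holds a gamma-activated site 245 bases before its RefSeq start (chr3:142496684-142496707) and a core 164 bases before it (chr3:142496760-142496788), both in an intron of the GENCODE gene. Gbp5 and Gbp2 each hold 1 further match inside a GENCODE exon. The capitals mark the match as before, and a match is a description of letters only.
Gbp3 core 1: aggacacagtTTCAGTTTCtatttcccag
Gbp3 core 2: cagtttcagtTTCTATTTCccagatccct
Gbp5 site: gcaacTTCTGGGAAattagttcag
Gbp5 core: cttgtgtagtTTCAATTTCagtttagaga

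The genes whose level ran most like the Gbp sum were found over 12 values, the cells with and without Cd3 of 6 libraries, which share cultures and the division by Cd3. Of 7981 genes compared, Pearson r on the log2 scale was highest for Rgcc (0.97), a regulator of the cell cycle, then Trp53i11 (0.96), Mier1 (0.96), a chromatin corepressor component, and Dntt (0.95), the polymerase that adds bases at receptor gene joints. Thrb, a thyroid hormone receptor, the ribosomal gene Rpl36al, the phosphatase Ptprf and Mllt3, a reader of acetylated histones, had 0.95 each. Rgcc was at 80.6, 151 and 182 CPM in WT from DN1 to DN2b and 77.9, 144 and 227 CPM in ΔTE, in the same order of starts as the Gbp sum. Dntt was at 6.68, 37.8 and 80.2 CPM in WT and 5.94, 30.2 and 107 CPM in ΔTE, a wider range in the same order of starts. The members themselves, each of which is part of the sum, had r of 0.94 (Gbp7), 0.94 (Gbp6), 0.93 (Gbp8), 0.84 (Gbp4), 0.73 (Gbp5), 0.60 (Gbp9), 0.24 (Gbp2) and −0.12 (Gbp3). The last 4 include Cd3 groups with 0 UMIs or few. Few UMIs do not set them apart, as Gbp6 had 2 in WT DN1 cells with Cd3 and Gbp4 had 1 in those of ΔTE DN1.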

How the data were processed

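The authors deposited UMI count matrices with all cell barcodes, and these counts were used; mm9 is from the submitters' processing notes and the aligner is not given in the sources used here. The files hold no coordinates, so positions are from GENCODE M21 (GRCm38) by Ensembl identifier, with 27924 of 28048 matched. A barcode counted as a cell from 200 genes up to 2000 UMIs, if no more than 30% of its UMIs were mitochondrial. No doublet caller was run; the upper limit of 2000 UMIs is the guard. UMIs were summed per library, per well and by Cd3 UMI, and divided by the total over genes that 15 or more cells held (the 3 Cd3 genes left out where cells were divided by them). Intervals of sums and ratios are exact Poisson, of shares Clopper-Pearson. A gene past 1.5-fold had at least 20 UMIs over both groups compared. Shares of cells used cells with at least 300 UMIs, thinned to 300. Marker sets needed at least 2 UMIs of a list. Alternatives changed scaling, mitochondrial, gene and UMI limits, stroma-marker cells, the Cd3 rule, thinning, the fold and the minimum count, and left out each well.

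Named genes were the 8 members, Bcl11b, the 3 genes with most UMIs of each fixed list, any list gene past 2-fold in 1 direction at all 3 starts (none), and the 8 genes with the highest r, among genes with at least 500 UMIs, on log2(CPM + 1). The lists were other Gbp genes, other interferon-inducible GTPases, interferons, receptors and kinases, factors, inhibitors, antigen processing, type I interferon targets and inflammasome genes, and markers of T, ILC or NK, myeloid, antigen-presenting, stroma and multipotent cells. The members and lists were chosen with earlier results of these data known. Protein identity was planned and not done, as no protein table was at hand. The steps were tested on simulated data. Tools were Python 3.11.15, numpy 2.4.6, scipy 1.17.1, pandas 2.3.3, matplotlib 3.10.9, R 4.3.3 and edgeR 4.0.16.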

Additional observations from a re-analysis of the deposited data

Results flagged for a closer look

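The ratio of ΔTE to WT went opposite ways at 2 starts, beyond the counting interval at each. For the sum of the 8 Gbp genes it was log2 0.30 for DN1 and −0.29 for DN2a. With either other scaling the DN2a value of the sum was −0.16, and relative to the median gene it was −0.14. For Gbp7 the ratio was 0.27 for DN1 and −0.42 for DN2a. Each value rests on 1 library per genotype, and the difference between the starts was not tested.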

How the results depend on the processing

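Leaving out each well in turn kept 60 of 60 main values in direction and within the counting interval. Of 459 values of single members 454 stayed within it, 3 moved and 2 turned; among those that stayed or moved, 32 changed sign, where the member was neither past 1.5-fold with at least 20 UMIs nor apart from 0 by its interval. Without 1 well, the log2 ratio of ΔTE to WT of the Gbp sum ran from 0.25 to 0.34 (DN1), −0.36 to −0.25 (DN2a) and 0.03 to 0.22 (DN2b). Between starts it ran from 1.19 to 1.27 and 0.10 to 0.19 in WT and from 0.58 to 0.69 and 0.48 to 0.67 in ΔTE. For Cd3 it ran from 0.77 to 0.94, 0.72 to 0.80 and 0.74 to 0.99 in WT and from 0.94 to 1.58, 0.35 to 0.56 and 0.54 to 0.66 in ΔTE. Gbp2 from ΔTE DN1 to DN2a ran from −0.16 to 1.02. Gbp5 with Cd3 in WT DN2b turned to −0.25 without well 3, and to 2.65 at the other end of the range, without well 2.

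Of 130 other values 101 stayed, 28 moved and 1 turned. Without mitochondrial genes in the scaling, the sum gave −0.16 (ΔTE to WT, DN2a), 1.08 (WT DN2a to DN1) and 0.31 (WT DN2b to DN2a), and TMM gave −0.16 for the first and 0.33 for the last. With no mitochondrial limit WT DN2b to DN2a turned to −0.018 and ΔTE DN2b to DN2a was 0.37. For Cd3, ΔTE DN2b was 0.97 with at most 20% mitochondrial UMIs, and at least 2 Cd3 UMIs gave 2.04 (ΔTE DN1) and 0.84 (ΔTE DN2a). The lowest values were 0.81 for ΔTE DN1 (at most 20% mitochondrial UMIs) and 0.37 for ΔTE DN2b (Cd3g alone). With at least 3 marker UMIs the sum was 261 CPM in T-set cells and 84.6 in multipotent cells. Shares thinned to 200 UMIs were 1.67, 4.28 and 4.43% in WT and 2.04, 3.16 and 4.79% in ΔTE, and without thinning 4.2, 8.21, 10.6, 5.33, 7.71 and 10.8%, as fewer or more UMIs per cell must give. Genes past the fold numbered 939, 1728 and 1450 at 1.5-fold and 288, 622 and 542 at 2-fold, and with at least 50 UMIs 452 (DN1) and 798 (DN2b), as fewer genes are tested. Elsewhere the cause was not tested.

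Of 777 other member values 758 stayed, 16 moved and 3 turned; 44 of those that stayed or moved changed sign in the same way. Those that turned were Gbp9 from ΔTE DN1 to DN2a (−0.24, at most 20% mitochondrial UMIs) and Gbp2 with Cd3 in WT DN2a (−0.57 with at least 2 Cd3 UMIs, −0.41 at equal depth). No ratio is given for a member with 0 UMIs in Cd3 cells, which were Gbp2 and Gbp9 in WT DN1, Gbp3 and Gbp9 in ΔTE DN1 and Gbp2 in ΔTE DN2b, and more under stricter rules. With 1 library per condition, differences between cultures cannot be told apart from genotype or start. The libraries were not analysed as pairs by start, which would set 3 different starts as replicates.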
